A study of Mus musculus with 12 samples.

Results

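Klf2, Klf4, Klf5, Esrrb, Tfcp2l1, Tbx3, Nr5a2, Tcl1 and L1td1 are genes of the naive pluripotency network, and their messenger RNA was followed in mouse primordial germ cells (PGCs) at E13.5 (embryonic day). These 9 genes were chosen by symbol from the 37991 gene identifiers of the count table, with earlier results of these data known. All 9 passed the filter on low counts, Tbx3 with at most 28 counts in a library. Ezh2 conditional knockout (CKO) embryos numbered 2 females and 3 males, and control (Ctrl) embryos 3 females and 4 males, which makes 4 groups by genotype and sex. All embryos were C57BL/6, and the PGCs of each embryo were sorted and sequenced apart, so each library is 1 embryo. The Cre driver, the alleles that the Ctrl embryos carried, the deleted exons and the litters are not given in the sources used here.

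Ezh2 encodes the main catalytic subunit of PRC2, the Polycomb complex that deposits H3K27me3, a repressive histone mark found mostly at CpG-rich promoters. In mouse embryonic stem cells the naive state is held by transcription factors that sit downstream of LIF and STAT3 and of Wnt signalling. Klf4, Klf2 and Klf5 encode zinc finger factors of the Krüppel-like family, Esrrb and Nr5a2 encode orphan nuclear receptors that bind similar sites, and Tfcp2l1 and Tbx3 encode further DNA-binding members of the network. Tcl1 encodes a small coactivator of the AKT kinases, and L1td1 an RNA-binding protein derived from the LINE-1 retrotransposon. PGCs regain several genes of this network after specification, and it is shut down again as they enter meiosis in females or mitotic arrest in males.

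Libraries held between 26180685 and 35299206 counts each, and values are given in CPM, the field's unit of counts normalised to the scaled size of a library. The summed level of 10 germ cell markers lay between 5797 and 6478 CPM, with no marker at 0 in any library. Dazl and Ddx4 made up most of this sum, and single markers differed between the groups: in females Mael averaged 532 CPM in CKO and 230.4 CPM in Ctrl embryos, and Dppa3 424 CPM in CKO and 668 CPM in Ctrl embryos. Pou5f1, Dnd1, Kit, Tfap2c and Prdm1 were also lower on average in female CKO than in female Ctrl embryos. Ddx4, Dazl and Nanos3 were higher on average in female CKO embryos. Ezh2 itself had 84.5 and 107 CPM in female CKO embryos, against 150.1, 145 and 166 CPM in female Ctrl embryos. In males it had 85.8, 82.4 and 85.0 CPM in CKO embryos, against 96.6, 144, 129 and 119 CPM in Ctrl embryos. The CKO embryos were below the Ctrl embryos of their sex in all cases. The log2 fold change was -0.68 in females (SE 0.15) and passed the test (edgeR adjusted p = 0.02), and it was -0.53 in males (SE 0.13) and fell short of it (edgeR adjusted p = 0.0527). Reads were counted over the whole gene, so a transcript that lacks only the deleted exons still adds to the count. The part of such transcripts in the remaining Ezh2 counts was not tested.

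The promoters of the members differ in CpG content. RefSeq promoter sequences on GRCm38.p6 were at hand for 7 of the 9 members, with 9 start sites among them. In the 250 bases before the start site, Klf4 had 32 CpG and Klf2 had 29, more than in 95.42% and 93.22% of the 32851 mouse promoter windows of the same length, whose median was 6. Tfcp2l1 had 16, L1td1 11 and Tcl1 7, while the start sites of Esrrb had 6 and 3 and those of Nr5a2 had 2 and 6. Windows are shown 5′ to 3′ on the strand of the gene, ending at the base before the start site, for the member that rose in CKO embryos (Klf4), for its CpG-rich relative (Klf2) and for the members with the widest difference between the sexes (Tcl1, L1td1). Capitals mark each CpG. They lie at chr4:55532476-55532725, minus strand (Klf4), chr8:72318812-72319061, plus strand (Klf2), chr12:105222738-105222987, minus strand (Tcl1), and chr4:98726504-98726753, plus strand (L1td1).
Klf4: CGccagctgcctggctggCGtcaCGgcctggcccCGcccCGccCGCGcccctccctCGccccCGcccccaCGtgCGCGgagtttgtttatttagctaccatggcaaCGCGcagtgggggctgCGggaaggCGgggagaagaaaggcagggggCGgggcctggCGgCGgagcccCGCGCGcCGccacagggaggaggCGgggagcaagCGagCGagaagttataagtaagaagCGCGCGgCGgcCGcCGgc
Klf2: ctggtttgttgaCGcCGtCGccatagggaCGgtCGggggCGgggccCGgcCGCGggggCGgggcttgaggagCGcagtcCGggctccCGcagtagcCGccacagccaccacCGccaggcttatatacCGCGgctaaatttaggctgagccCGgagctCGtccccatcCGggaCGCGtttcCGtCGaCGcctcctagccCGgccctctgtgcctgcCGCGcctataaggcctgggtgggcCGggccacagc
Tcl1: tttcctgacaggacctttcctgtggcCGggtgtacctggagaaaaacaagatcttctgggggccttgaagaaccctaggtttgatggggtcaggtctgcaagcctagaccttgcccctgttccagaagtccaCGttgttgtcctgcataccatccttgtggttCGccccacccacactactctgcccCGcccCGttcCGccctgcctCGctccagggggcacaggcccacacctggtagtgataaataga
L1td1: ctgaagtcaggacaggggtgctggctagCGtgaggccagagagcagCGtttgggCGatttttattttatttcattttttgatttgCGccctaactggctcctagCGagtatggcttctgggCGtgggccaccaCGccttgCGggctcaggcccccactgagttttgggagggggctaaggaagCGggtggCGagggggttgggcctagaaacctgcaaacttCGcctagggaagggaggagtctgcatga

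Each window was searched on both strands for 7 motifs, which were AAGGTCA (the site shared by Esrrb and Nr5a2), CCACCC (the core of many Klf sites), GGTGTGA (a T-box half-site), ATGCAAAT (the octamer that OCT4 binds), TATAAA (the TATA box), TCACGTG (an E-box) and the paired site of Tfcp2l1. A match to CCACCC was found 14 to 19 bases before the start site of Klf2, 61 to 66 before that of L1td1 and 78 to 83 before that of Tcl1, and at least once in both windows of Esrrb and in one of Nr5a2. It is common, occurring in 28.08% of all windows. TATAAA was found 23 to 28 bases before the start site of Tfcp2l1, and on the minus strand 176 to 181 bases before one of the start sites of Nr5a2, against 12.37% of all windows with a match anywhere. No match to any of the motifs was found in the Klf4 window.

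The members covered a wide range of expression. On the scale of CPM per kb of exon, which allows levels of different genes to be compared, Tcl1 led in male Ctrl embryos with 69.1 ± 5.34 (SD, n = 4). Klf2 followed with 26.7 ± 3.54, L1td1 with 23.7 ± 7.44 and Klf5 with 18.1 ± 2.04 CPM per kb. Klf2 and L1td1 did not differ beyond their spread, nor did L1td1 and Klf5. Esrrb (4.18 ± 0.768) and Tfcp2l1 (4.06 ± 1.81 CPM per kb) were alike within their spread and stood well below these. Nr5a2 was at 1.8 ± 0.187, Klf4 at 0.680 ± 0.151 and Tbx3 at 0.0384 ± 0.0290 CPM per kb.

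In female Ctrl embryos the order was similar at the top and the bottom. Tcl1 had 29.6 ± 5.91 and Klf2 23.5 ± 6.92 CPM per kb (SD, n = 3), which overlap. L1td1, at 7.31 ± 1.48 CPM per kb, was below Klf5 (12.7 ± 0.385) and near Tfcp2l1 (5.34 ± 0.824). Klf4 (0.731 ± 0.260) was within the spread of Nr5a2 (1.00 ± 0.296) and above Tbx3 (0.0431 ± 0.0322 CPM per kb). In the CKO groups of both sexes Klf4 reached or passed the level of Nr5a2, with 1.87 ± 0.0847 against 0.808 ± 0.307 CPM per kb for Nr5a2 in female CKO embryos (n = 2) and 1.61 ± 0.387 against 1.70 ± 0.269 in male CKO embryos (n = 3). Tbx3 was close to the limit of detection, with 0 to 28 counts in a library, and its changes between groups could not be resolved at this depth.

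**Figure D1:**
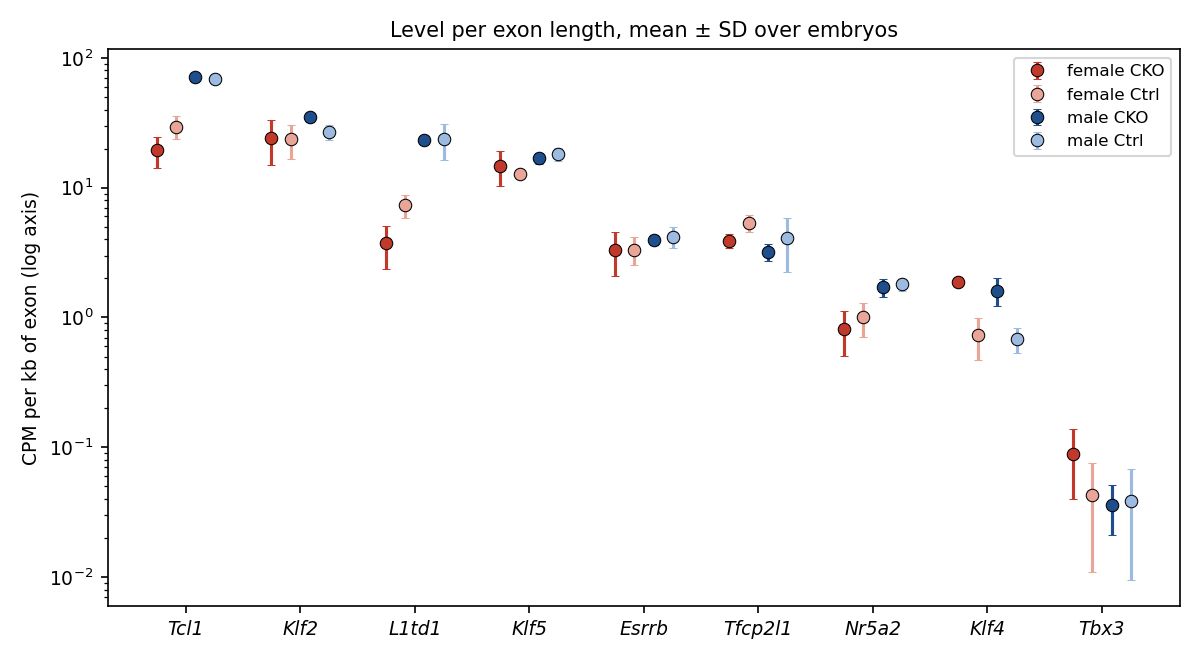
Mean level per exon length (CPM per kb, log axis) of the 9 members in each of the 4 groups of embryos, with bars for the SD over embryos. Tcl1 is highest in both male groups (71.6 and 69.1 CPM per kb in CKO and Ctrl), Tbx3 is lowest throughout, and Klf4 is higher in both CKO groups than in the Ctrl group of the same sex.

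Klf4 was higher in CKO than in Ctrl germ cells of both sexes. In females it had 5.53 and 5.90 CPM in CKO embryos, against 2.46, 1.34 and 2.88 CPM in Ctrl embryos. In males it had 4.37, 4.09 and 6.26 CPM in CKO embryos, against 2.25, 1.49, 1.99 and 2.57 CPM in Ctrl embryos. The groups did not overlap in either sex, and the lowest CKO embryo of all (4.09 CPM) was above the highest Ctrl embryo of all (2.88 CPM). With so few embryos, the groups of 1 sex can separate by chance, here and for the members below. The share of all tested genes that separate in this way is not given here. Klf4, a reprogramming factor that is also expressed in epithelia and in Sertoli cells, stayed a gene of low abundance even so, with 118 to 196 counts in CKO libraries and 36 to 84 counts in Ctrl libraries.

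In females the log2 fold change of Klf4 was 1.36 (SE 0.35), a fold of 2.57 with a 95% interval of 1.51 to 4.35, and it passed the test (edgeR's quasi-likelihood test, adjusted p = 0.037 over 16708 genes). It was the only member called in that contrast, 1 of 9, where 7.17% of all tested genes were called, 3.01% higher and 4.16% lower. The call was lost when any 1 of the 5 female embryos was left out (edgeR adjusted p between 0.0547 and 0.154), while the log2 fold change stayed between 1.11 and 1.60. In males the log2 fold change was 1.24 (SE 0.30), a fold of 2.36 with a 95% interval of 1.51 to 3.70, and it missed the threshold (edgeR adjusted p = 0.056). By edgeR 0 of 9 members were called in males, against 1.7% of all tested genes called and 1.2% called higher. Klf4 was the 1 member with an unadjusted p under 0.05 there, and it was called by limma-voom (adjusted p = 0.0242) and by DESeq2 (adjusted p = 0.00172).

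The rise of Klf4 did not differ detectably between the sexes, the difference between the effects being 0.12 on the log2 scale with a 95% interval of -0.89 to 1.13 (edgeR adjusted p = 0.967). A contrast added after these values were seen, the mean of the CKO effects of both sexes, gave Klf4 a log2 fold change of 1.30 (SE 0.23), a fold of 2.46 with a 95% interval of 1.74 to 3.48 and an edgeR adjusted p of 0.00336. It was the only one of the 9 members called in that contrast, where 14.7% of all tested genes were called, 6.85% higher and 7.87% lower, and it remained called when any 1 of the 12 embryos was left out (edgeR adjusted p between 0.0034 and 0.0159).

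Some markers of other cells differed between CKO and Ctrl embryos as Klf4 did, and others did not. The summed markers of pregranulosa cells, Leydig cells, red blood cells and macrophages overlapped between CKO and Ctrl embryos in both sexes. The 6 markers of mesonephric and coelomic epithelium summed to between 4.42 and 9.72 CPM in female CKO embryos, against 1.29 to 1.44 CPM in female Ctrl embryos. In males they summed to between 4.20 and 4.77 CPM in CKO embryos, against 1.11 to 2.31 CPM in Ctrl embryos, and Upk3b of this list was at 0 in all male libraries. In females the sums of endothelial markers (7.73 to 8.76 CPM in CKO, against 3.64 to 5.29 CPM in Ctrl), interstitial markers (9.45 to 28.7 CPM in CKO, against 2.35 to 8.97 CPM in Ctrl) and Sertoli cell markers (3.54 to 3.79 CPM in CKO, against 1.92 to 3.19 CPM in Ctrl) did not overlap either, while in males those 3 sums did. The interstitial sum of female CKO embryo 1 (9.45 CPM) was close to the highest female Ctrl sum (8.97 CPM), and embryo 2 had 28.7 CPM. Dcn of that list averaged 0.356 CPM in female CKO and 0.724 CPM in female Ctrl embryos, while its other genes were higher in CKO. With so few female CKO embryos, sums can also separate by chance. Of the Sertoli list, Amh and Cst9 were at 0 in all female libraries. Fgf9 of this list averaged 1.84 CPM in female CKO and 0.563 CPM in female Ctrl embryos. Wt1 and Ptgds were also higher on average in female CKO embryos. Sox9, Dhh and Gata4 were lower there, Gata4 with 0.755 CPM in female CKO and 1.31 CPM in female Ctrl embryos. The part of these cells in the result for Klf4 was not tested. In sorted populations measured in bulk, more cells that express a gene and more RNA per cell cannot be told apart.

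**Figure D2:**
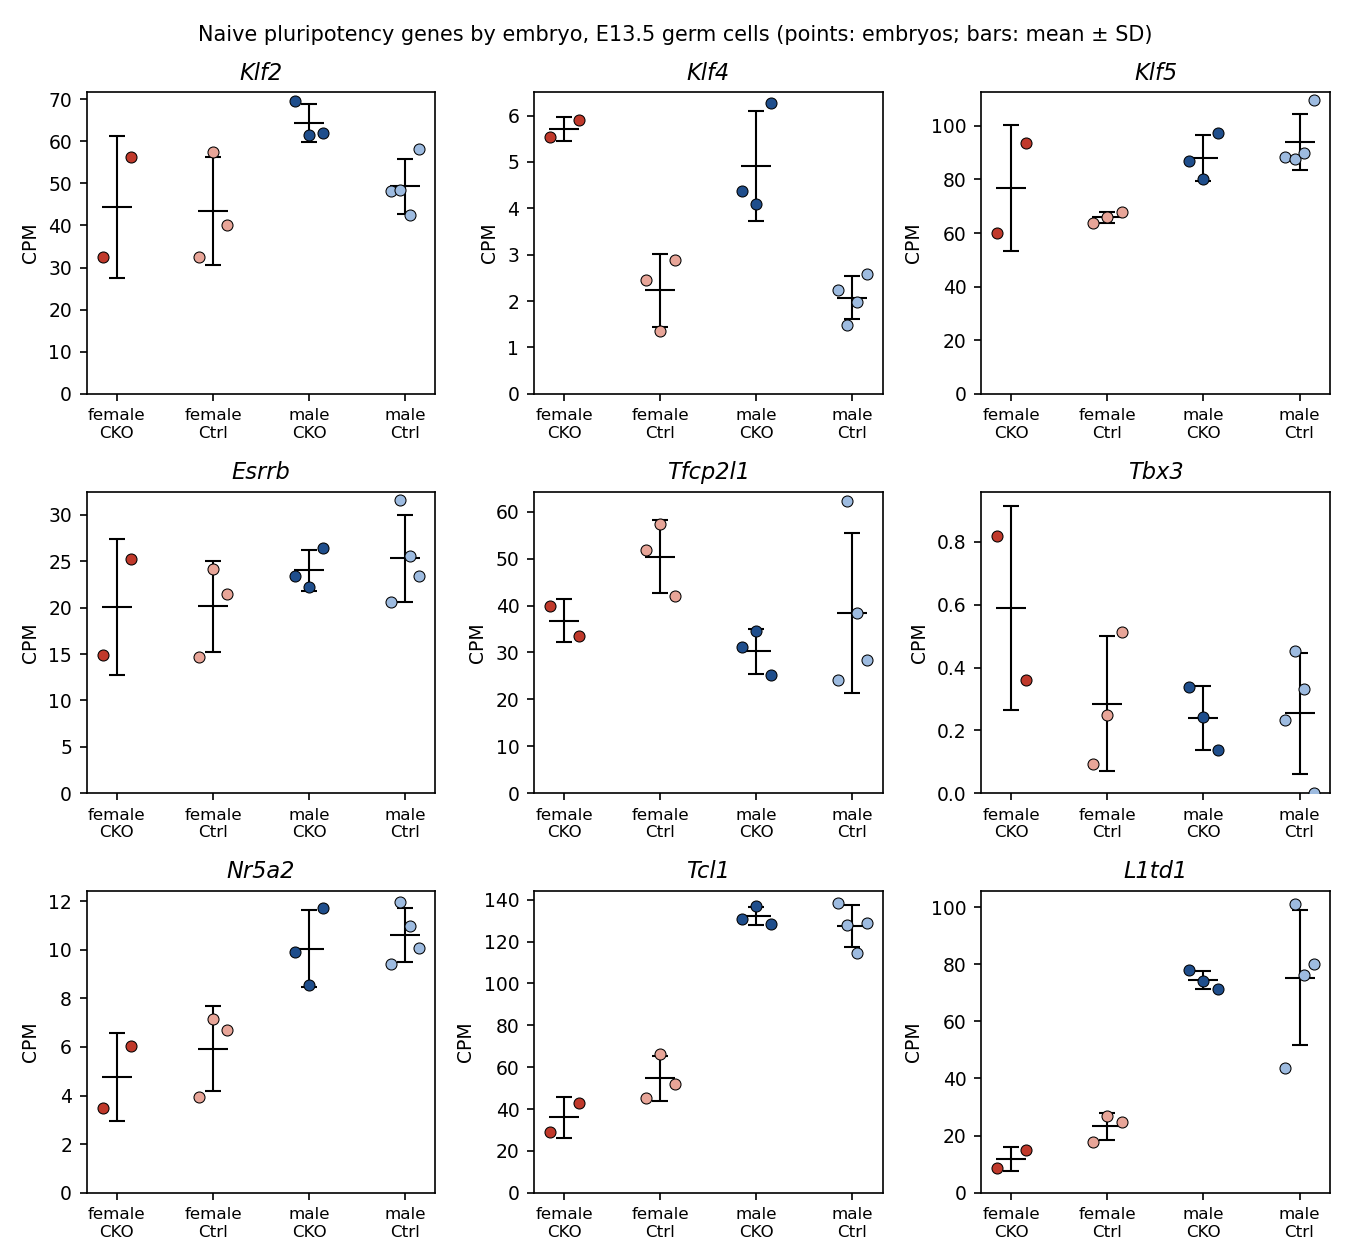
Level of each member in every embryo (CPM on scaled library sizes), with bars for the mean ± SD of each group. All 5 CKO embryos lie above all 7 Ctrl embryos for Klf4, and the female embryos lie below the male embryos for Tcl1, L1td1 and Nr5a2.

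Neither of the other Klf members was called between CKO and Ctrl. Klf2, which supports naive self-renewal together with Klf4 and Klf5, had 32.5 and 56.3 CPM in female CKO embryos, against 32.6, 57.5 and 40.2 CPM in female Ctrl embryos. The female groups overlapped (log2 fold change 0.03, 95% interval -0.49 to 0.55). In males Klf2 had 69.6, 61.5 and 61.9 CPM in CKO embryos, against 48.2, 48.3, 42.5 and 58.3 CPM in Ctrl embryos. All male CKO embryos were above all male Ctrl embryos, but the log2 fold change of 0.38 (SE 0.20) did not pass (edgeR adjusted p = 0.361).

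Klf5, which acts in the trophectoderm and inner cell mass as well as in stem cells, had 60.2 and 93.5 CPM in female CKO embryos, against 63.7, 66.1 and 67.7 CPM in female Ctrl embryos. The CKO embryos lay on both sides of the Ctrl embryos (log2 fold change 0.22, 95% interval -0.13 to 0.58). In males Klf5 had 86.9, 80.3 and 97.3 CPM in CKO embryos, against 88.4, 87.6, 90.0 and 109.8 CPM in Ctrl embryos, which overlap (log2 fold change -0.09, 95% interval -0.39 to 0.21). For neither gene did the male or female interval reach a fold change of the size estimated for Klf4 (log2 1.24 or more). The intervals of Klf4 itself began at 0.60 in females and 0.59 in males. In males the Klf2 interval, which ended at 0.81, overlapped that of Klf4.

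For Tcl1 and L1td1 both female CKO embryos lay below all female Ctrl embryos, a difference that did not pass the test by edgeR, and the male groups overlapped. Tcl1 had 29.1 and 42.8 CPM in female CKO embryos, against 45.1, 66.5 and 52.1 CPM in female Ctrl embryos. L1td1 had 8.81 and 14.9 CPM in female CKO embryos, against 17.9, 26.8 and 24.9 CPM in female Ctrl embryos. Neither pair of groups overlapped, and female CKO embryo 1 was the lowest of the 5 for both genes. Groups as small as the female ones can separate for a gene by chance. The share of all tested genes that do so is not given here. The log2 fold changes were -0.60 for Tcl1 (SE 0.18, adjusted p = 0.0549 by edgeR) and -0.97 for L1td1 (SE 0.30, adjusted p = 0.0697 by edgeR).

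In the tests of the same females with limma-voom and DESeq2, both genes passed, with adjusted p of 0.0261 and 0.0243 for Tcl1 and of 0.0431 and 0.018 for L1td1. Without female CKO embryo 1 their edgeR values were -0.35 (adjusted p = 0.379) for Tcl1 and -0.64 (adjusted p = 0.394) for L1td1. In males Tcl1 had 131, 137 and 129 CPM in CKO embryos, against 139, 128, 115 and 129 CPM in Ctrl embryos. L1td1 had 77.9, 74.2 and 71.4 CPM in male CKO embryos, against 43.8, 101, 76.2 and 80.2 CPM in male Ctrl embryos. The male groups overlapped for both genes, with log2 fold changes of 0.05 (95% interval -0.25 to 0.36) for Tcl1 and -0.01 (95% interval -0.53 to 0.50) for L1td1.

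The difference of the effects, female minus male, was -0.65 for Tcl1 (SE 0.22, unadjusted p = 0.0117, edgeR adjusted p = 0.496) and -0.96 for L1td1 (SE 0.38, unadjusted p = 0.026, edgeR adjusted p = 0.547). By edgeR this contrast called 0 of 9 members and 0% of the 16708 genes, with 1401 genes at an unadjusted p under 0.05, 0 called by limma-voom and 54 by DESeq2, none of them a member. An effect on these genes in females alone is therefore not shown.

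Neither nuclear receptor gene was called between CKO and Ctrl. Esrrb, which can stand in for Nanog in stem cell self-renewal, had 14.9 and 25.2 CPM in female CKO embryos, against 14.7, 24.2 and 21.5 CPM in female Ctrl embryos. The male values were 23.4, 22.2 and 26.5 CPM in CKO embryos, against 20.6, 31.6, 25.6 and 23.4 CPM in Ctrl embryos. Both pairs of groups overlapped, and the log2 fold changes were -0.01 (95% interval -0.55 to 0.54) in females and -0.07 (95% interval -0.53 to 0.38) in males.

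Nr5a2 (also known as Lrh-1) had 3.48 and 6.05 CPM in female CKO embryos, against 3.93, 7.16 and 6.69 CPM in female Ctrl embryos. In males it had 9.91, 8.53 and 11.7 CPM in CKO embryos, against 9.43, 12, 11 and 10.1 CPM in Ctrl embryos. The groups of each sex overlapped, with log2 fold changes of -0.31 (95% interval -0.96 to 0.33) in females and -0.08 (95% interval -0.61 to 0.45) in males.

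Tfcp2l1, a STAT3 target that supports naive self-renewal, had 40.0 and 33.6 CPM in female CKO embryos, against 51.8, 57.4 and 42.0 CPM in female Ctrl embryos. The 2 CKO embryos were below the 3 Ctrl embryos, but the log2 fold change of -0.45 (SE 0.31) did not pass (edgeR adjusted p = 0.41). In males it had 31.1, 34.6 and 25.1 CPM in CKO embryos, against 24.2, 62.3, 38.5 and 28.4 CPM in Ctrl embryos. The male groups overlapped, male Ctrl embryo 2 being the highest of all 12 (log2 fold change -0.34, SE 0.26, adjusted p = 0.56 by edgeR). Tbx3, a T-box repressor and the least abundant member, had 28 and 12 counts in female CKO embryos, against 3, 8 and 15 counts in female Ctrl embryos, which gave a log2 fold change of 1.05 ± 0.93 (SE) and an edgeR adjusted p of 0.541. It had 10, 7 and 4 counts in male CKO embryos, against 8, 11, 10 and 0 counts in male Ctrl embryos, and no difference was detectable at this depth.

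Over the 9 members the median log2 fold change between CKO and Ctrl was -0.01 in females, against 0.00 over all tested genes, and -0.07 in males, against -0.02 over all tested genes.

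**Figure D3:**
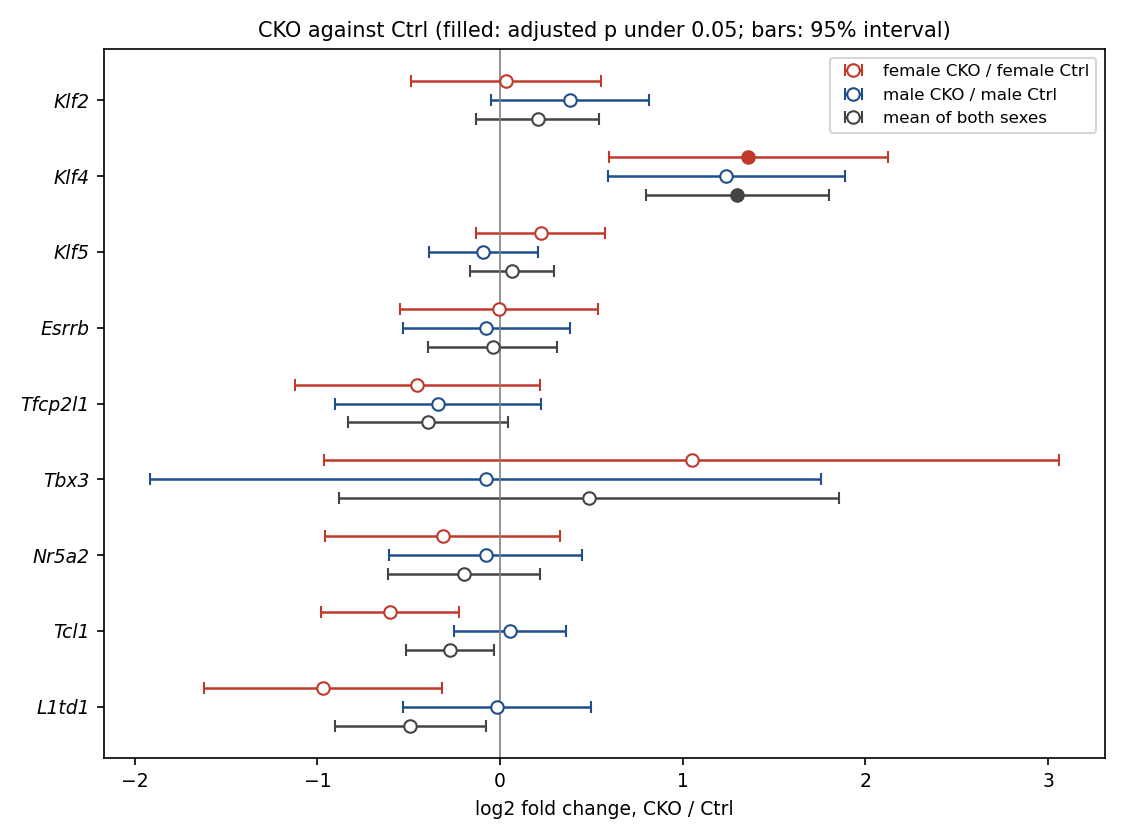
Log2 fold change, CKO over Ctrl, of each member in females, in males and as the mean of both sexes, with bars for the 95% interval of the edgeR fit and filled points where the adjusted p was under 0.05. Klf4 lies at 1.36 in females and 1.24 in males with intervals clear of 0, Tcl1 (-0.60) and L1td1 (-0.97) are below 0 in females, and the interval of Tbx3 is the widest.

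Among Ctrl embryos 4 of the 9 members were called lower in females than in males, and 0 were called higher (0 at an unadjusted p under 0.05 and by DESeq2, 1 by limma-voom). In this contrast 39.5% of all tested genes were called, 19.4% lower and 20.1% higher, so that the 4 called members are near the share of all genes called in either direction. L1td1 had the largest difference, with 23.2 ± 4.71 CPM in female Ctrl embryos (SD, n = 3) and 75.3 ± 23.6 CPM in male Ctrl embryos (SD, n = 4). The log2 fold change was -1.70 ± 0.25 (SE), with an edgeR adjusted p of 0.000172. Tcl1 followed with 54.6 ± 10.9 CPM in female and 127 ± 9.86 CPM in male Ctrl embryos, which gave -1.22 ± 0.15 (SE) on the log2 scale (edgeR adjusted p = 3.28e-05).

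Nr5a2 (log2 fold change -0.84, SE 0.25, adjusted p = 0.017 by edgeR) and Klf5 (-0.51, SE 0.14, adjusted p = 0.0102 by edgeR) were also lower in female Ctrl embryos. For each of these 4 genes every female Ctrl embryo was below every male Ctrl embryo. The call for Nr5a2 was lost without female Ctrl embryo 1 (adjusted p = 0.0821). The other 5 members were not called, with log2 fold changes of -0.33 for Esrrb (95% interval -0.79 to 0.13), -0.18 for Klf2 (-0.62 to 0.25), 0.10 for Klf4 (-0.56 to 0.76), 0.16 for Tbx3 (-1.65 to 1.96) and 0.40 for Tfcp2l1 (-0.16 to 0.95). Tfcp2l1 was called higher in females when male Ctrl embryo 2 was left out (0.73, edgeR adjusted p = 0.00583) and by limma-voom (adjusted p = 0.0313).

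Among CKO embryos L1td1, Tcl1 and Nr5a2 were called lower in females, 3 of 9 members, against 38.4% of all tested genes called and 19% called lower. L1td1 had 11.9 ± 4.30 CPM in female CKO embryos (SD, n = 2) and 74.5 ± 3.27 CPM in male CKO embryos (SD, n = 3), which gave a log2 fold change of -2.65 ± 0.32 (SE) and an edgeR adjusted p of 4.85e-05. Tcl1 had 36.0 ± 9.70 CPM in female and 132 ± 4.22 CPM in male CKO embryos, which gave a log2 fold change of -1.88 ± 0.18 (SE) and an edgeR adjusted p of 1.13e-05. The log2 fold change of Nr5a2 was -1.08 (SE 0.31, adjusted p = 0.0134 by edgeR), and its call was lost without female CKO embryo 1 (-0.74, adjusted p = 0.153) and without male CKO embryo 3 (-0.93, adjusted p = 0.05005).

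Klf5 was not called among CKO embryos (-0.20, 95% interval -0.56 to 0.16), female CKO embryo 1 being at 60.2 and female CKO embryo 2 at 93.5 CPM. Klf2 was below all male CKO embryos in both female CKO embryos and did not pass (-0.53, SE 0.24, adjusted p = 0.1 by edgeR). Without female CKO embryo 2 both were called lower (Klf2 -0.98, adjusted p = 0.0192, and Klf5 -0.55, adjusted p = 0.0267). Whether a sex difference itself differed between CKO and Ctrl embryos is the same contrast as the difference of the CKO effects, in which no member was called. Klf4 showed no detectable sex difference in CKO embryos either (0.22, 95% interval -0.54 to 0.98). The median log2 fold change of the 9 members, female over male, was -0.33 among Ctrl embryos, against 0.00 over all tested genes, and -0.26 among CKO embryos, against 0.03 over all tested genes.

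**Figure D4:**
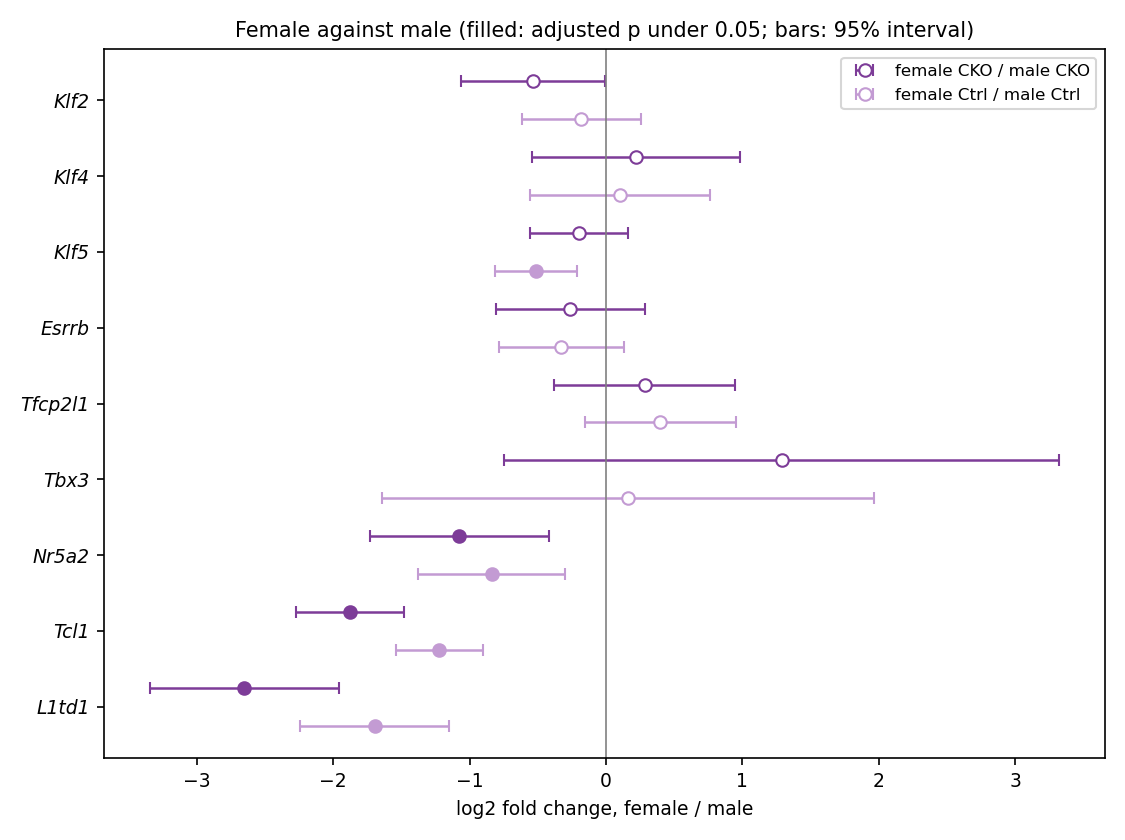
Log2 fold change, female over male, of each member among CKO and among Ctrl embryos, with bars for the 95% interval and filled points where the edgeR adjusted p was under 0.05. L1td1 (-2.65 and -1.70 in CKO and Ctrl), Tcl1 (-1.88 and -1.22) and Nr5a2 (-1.08 and -0.84) are filled in both, Klf5 in Ctrl alone.

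The members also varied among embryos of the same group. With each embryo expressed as its deviation from its group mean in log2(CPM + 1), and taken as a description over 12 libraries and 36 pairs of members, the highest correlations were those of Esrrb with Nr5a2 and of Klf2 with Tcl1. Esrrb with Nr5a2 had a Pearson r of 0.95 and a Spearman rho of 0.95, and r was 0.93 without the 2 embryos farthest from the median of Esrrb. Klf2 with Tcl1 had r = 0.91 and rho = 0.86, and r was 0.81 without the 2 embryos farthest from the median of Klf2. The lowest was that of Klf4 with Tfcp2l1, with r = -0.74 and rho = -0.82, and r was -0.80 without the 2 farthest embryos. The points of a pair share their library and its scaling, and the pairs were picked for their size. Deviations within a group are tied to its mean, so the 12 points are not independent. Those of the 2 female CKO embryos mirror each other.

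For each member called in some contrast, the 3 genes with the most similar profile over all 12 libraries were taken among 9770 or 9771 other genes with a mean of at least 5 CPM, by Pearson r of log2(CPM + 1), as a description. Klf4 was followed most closely by Psph (r = 0.93), Nptx2 (0.90) and Cadm1 (0.90). L1td1 was followed by Uck2 (r = 0.99), Snx3 (0.99) and Hey1 (0.99), and Tcl1 by Ppan (0.99), Zswim1 (0.98) and Tomm40 (0.98). Nr5a2 was followed by Dimt1 (r = 0.98), Rnf125 (0.97) and Nol8 (0.97), and Klf5 by Ccnt1 (0.97), Proser1 (0.96) and Alkbh4 (0.93). For genes that divide by sex, such as L1td1 and Tcl1, the difference between male and female libraries sets most of r.

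Of 19 tested core and other pluripotency factors, 8 fell in female CKO embryos and 0 rose (0 at an unadjusted p under 0.05, by limma-voom and by DESeq2), with a median log2 fold change of -0.41 against 0.00 over all tested genes. Over all tested genes 4.16% were called lower in this contrast. These 19 genes and the lists below were chosen with earlier results of these data known. Their counts therefore describe the lists and are no independent test of them. Gdf3, a TGF-beta ligand, had 19.6 ± 4.87 CPM in female CKO embryos (n = 2) and 44.7 ± 9.77 CPM in female Ctrl embryos (n = 3), which gave a log2 fold change of -1.19 ± 0.21 (SE) and an edgeR adjusted p of 0.00773. Nanog, a core homeobox factor, had 46.2 ± 15.6 CPM in female CKO and 95.8 ± 24.8 CPM in female Ctrl embryos, which gave a log2 fold change of -1.05 ± 0.23 (SE) and an edgeR adjusted p of 0.0177. Pou5f1, which encodes OCT4, fell by 0.56 (SE 0.12, adjusted p = 0.0142 by edgeR) and Dppa3, a maternal and germ cell factor, by 0.65 on the log2 scale (SE 0.14, adjusted p = 0.0147 by edgeR).

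In males 0 of these 19 genes were called by edgeR (2 lower at an unadjusted p under 0.05, 0 by limma-voom and by DESeq2), with a median of -0.13. Of all tested genes, edgeR called 1.7% in males, and 16.7% had an unadjusted p under 0.05, in either direction. Gdf3 had 39 ± 1.61 CPM in male CKO embryos (n = 3) and 49.7 ± 7.79 CPM in male Ctrl embryos (n = 4), and Nanog 120.3 ± 11.1 CPM in male CKO and 132 ± 14.2 CPM in male Ctrl embryos. The difference between the sexes did not pass for any of the 19 (5 lower at an unadjusted p under 0.05, 0 by limma-voom and by DESeq2). In that contrast edgeR called 0% of all tested genes, and 8.39% had an unadjusted p under 0.05 in either direction. Between the sexes 9 were called lower and 2 higher in female than in male Ctrl embryos, against 19.4% of all tested genes called lower and 20.1% called higher. Tdgf1, the Nodal co-receptor, had 0.0854 ± 0.0949 CPM in female and 24.0 ± 6.71 CPM in male Ctrl embryos, while Gbx2, a homeobox gene that LIF and STAT3 can induce, had 37.5 ± 7.07 CPM in female and 7.09 ± 4.05 CPM in male Ctrl embryos.

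Upstream of the members, 0 of 11 genes of LIF and STAT3 signalling were called by edgeR between CKO and Ctrl in either sex. In females 2 were lower at an unadjusted p under 0.05, with 1 called by limma-voom and 1 by DESeq2, and in males 1 was higher at an unadjusted p under 0.05, with 0 called by both tools. Of all tested genes, 23.3% had an unadjusted p under 0.05 in females and 16.7% in males, in either direction. By edgeR 7.17% of all tested genes were called in females and 1.7% in males. Among Ctrl embryos 4 of the 11 were called higher and 1 lower in females, near the 39.5% of all tested genes called in either direction. Jak2, the kinase of many cytokine receptors, had 64.7 ± 6.80 CPM in female and 28.4 ± 4.84 CPM in male Ctrl embryos, which gave a log2 fold change of 1.19 ± 0.15 (SE) and an edgeR adjusted p of 4.96e-05. Stat3, the transcription factor downstream of LIF, was also higher in female Ctrl embryos (log2 fold change 0.84, SE 0.24, adjusted p = 0.014 by edgeR), and Socs3, a feedback inhibitor that STAT3 induces, had 0.844 ± 0.261 CPM in female and 0.126 ± 0.175 CPM in male Ctrl embryos (2.78, SE 0.94, adjusted p = 0.0305 by edgeR). Socs3 was close to the limit of detection, with 0 to 0.371 CPM in male Ctrl and 0.583 to 1.11 CPM in female Ctrl embryos. Pim3, a kinase gene that STAT3 also induces, was lower in female Ctrl embryos (-0.52, SE 0.14, adjusted p = 0.0105 by edgeR).

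Of 13 Wnt and FGF inputs, edgeR called 1 lower in female CKO embryos, Fgfr2, a receptor for FGF. In the same contrast 3 were called lower by limma-voom, 4 by DESeq2, and 8 were lower at an unadjusted p under 0.05. The list median of the log2 fold change was -0.36, against -0.004 over all tested genes. Of all tested genes, edgeR called 4.16% lower, and 23.3% had an unadjusted p under 0.05 in either direction. Fgfr2 had 31.2 ± 8.79 CPM in female CKO and 59.1 ± 11.5 CPM in female Ctrl embryos, which gave a log2 fold change of -0.92 ± 0.22 (SE) and an edgeR adjusted p of 0.0267. In males 0 were called by edgeR (2 higher at an unadjusted p under 0.05, 0 by limma-voom and by DESeq2). There edgeR called 1.7% of all tested genes, and 16.7% had an unadjusted p under 0.05, in either direction. Among Ctrl embryos 4 of the 13 were called lower and 2 higher in females, against 39.5% of all tested genes called in either direction. Of these, the FGF targets Etv4 (-1.66, SE 0.25, adjusted p = 0.000197 by edgeR) and Etv5 (-1.29, SE 0.19, adjusted p = 0.000134 by edgeR) were lower in females. The Wnt target Axin2 was higher in females (1.83, SE 0.17, adjusted p = 5.14e-06 by edgeR).

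Of 16 genes of the AKT pathway, through which Tcl1 acts, 4 fell in female CKO embryos and 0 rose (1 at an unadjusted p under 0.05, 1 by limma-voom and 1 by DESeq2). Of all tested genes, edgeR called 4.16% lower and 3.01% higher in this contrast. Tsc2, an inhibitor of the mTORC1 kinase, fell in both sexes. It had 75 ± 6.62 CPM in female CKO and 121 ± 1.83 CPM in female Ctrl embryos (log2 fold change -0.69, SE 0.12, adjusted p = 0.00692 by edgeR), and 92.9 ± 11.5 CPM in male CKO and 135 ± 6.36 CPM in male Ctrl embryos (-0.54, SE 0.10, adjusted p = 0.0176 by edgeR). Pik3cd, a catalytic subunit of PI3 kinase, fell in females (-0.90, SE 0.17, adjusted p = 0.00892 by edgeR), as did Pik3cb (-0.57) and Rptor (-0.65), a partner of mTOR. In males Pik3cd had 155 ± 26.3 CPM in CKO and 217 ± 28.5 CPM in Ctrl embryos (-0.49, SE 0.13, adjusted p = 0.0842 by edgeR), and Rptor 52.0 ± 10.3 CPM in CKO and 71.7 ± 6.27 CPM in Ctrl embryos (-0.46, SE 0.14, adjusted p = 0.108 by edgeR). For both genes every male CKO embryo was below every male Ctrl embryo. In males 6 genes of the list were lower at an unadjusted p under 0.05, with 1 called by edgeR, 5 by limma-voom and 4 by DESeq2. Of all tested genes, 16.7% had an unadjusted p under 0.05 in males in either direction. There edgeR called 0.497% of all tested genes lower and 1.2% higher. The list median was -0.17 in females, against -0.004 over all tested genes, and -0.26 in males, against -0.02 over all tested genes. The difference of the CKO effects was not called for any of the 16 (0 at an unadjusted p under 0.05, by limma-voom and by DESeq2). In that contrast edgeR called 0% of all tested genes, and 8.39% had an unadjusted p under 0.05 in either direction. Pik3r1, the regulatory subunit, rose in males to 10.4 ± 2.05 CPM in CKO embryos, against 2.75 ± 1.53 CPM in Ctrl embryos (1.92, SE 0.40, adjusted p = 0.0332 by edgeR). In females it had 6.47 ± 0.210 CPM in CKO and 2.06 ± 0.795 CPM in Ctrl embryos and was not called (1.65, SE 0.48, adjusted p = 0.0551 by edgeR). Among Ctrl embryos 6 genes of this list were called lower and 1 higher in females, against 39.5% of all tested genes called in either direction, with Pik3cd at 44.1 ± 1.62 CPM in female and 217 ± 28.5 CPM in male Ctrl embryos and the kinase gene Pdpk1 at 89.3 ± 5.33 CPM in female and 42.5 ± 8.55 CPM in male Ctrl embryos.

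Of the 14 other Klf genes, Klf12, a transcriptional repressor, rose in female CKO embryos and Klf8, another repressor of the family, fell. At an unadjusted p under 0.05 there were 5 higher and 1 lower, and limma-voom and DESeq2 each called 2 higher and 1 lower, with a list median of 0.37 against 0.00 over all tested genes. Of all tested genes, edgeR called 3.01% higher and 4.16% lower, and 23.3% had an unadjusted p under 0.05 in either direction. Klf12 had 11.4 ± 1.81 CPM in female CKO and 4.06 ± 2.03 CPM in female Ctrl embryos (log2 fold change 1.49, SE 0.38, adjusted p = 0.0348 by edgeR), and 3.94 ± 0.515 CPM in male CKO and 3.57 ± 1.03 CPM in male Ctrl embryos. Klf8 had 51.9 ± 1.59 CPM in female CKO and 74.3 ± 8.78 CPM in female Ctrl embryos (-0.52, SE 0.11, adjusted p = 0.018 by edgeR). In males 0 of the 14 were called by edgeR, limma-voom or DESeq2, and 0 had an unadjusted p under 0.05. There edgeR called 1.7% of all tested genes, and 16.7% had an unadjusted p under 0.05, in either direction. Among Ctrl embryos 4 of the 14 were called higher in females, Klf14 and Klf11 with the smallest adjusted p of them, and Klf16 and Klf7 were called lower, against 39.5% of all tested genes called in either direction. The other relatives of the members, such as Esrra, Nr5a1 and Tbx2, had 11 of 17 genes tested, and edgeR called 0 between CKO and Ctrl in either sex. In females 3 of them were lower at an unadjusted p under 0.05, with 2 called by limma-voom and 2 by DESeq2, and in males these counts were 0. Among Ctrl embryos Esrra, an estrogen-related receptor gene like Esrrb, had 29.0 ± 1.72 CPM in female and 9.29 ± 3.22 CPM in male embryos, and Tbx2, the closest relative of Tbx3, 4.35 ± 1.74 CPM in female and 1.17 ± 0.435 CPM in male embryos. Both were called higher in females (1.64 and 1.89 on the log2 scale), and Nr5a1, a relative of Nr5a2 that marks gonadal somatic cells, was called lower (-2.80). Of the 11 tested relatives, 3 were called higher and 1 lower in this contrast, against 39.5% of all tested genes called in either direction.

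Genes of the formative and primed states, which follow the naive state, had 10 of 13 genes tested. In females edgeR called 1 of them higher and 1 lower, limma-voom 4 and 1, and DESeq2 3 and 1. At an unadjusted p under 0.05 there were 4 higher and 3 lower. Of all tested genes in females, edgeR called 3.01% higher and 4.16% lower, and 23.3% had an unadjusted p under 0.05 in either direction. In females Sox3, a SoxB1 factor, rose to 7.34 ± 0.424 CPM in CKO embryos, against 3.00 ± 0.281 CPM in Ctrl embryos (log2 fold change 1.29, SE 0.30, adjusted p = 0.0234 by edgeR). Zic5, a zinc finger factor, fell to 0.886 ± 0.444 CPM in female CKO embryos, against 4.49 ± 0.319 CPM in female Ctrl embryos (-2.34, SE 0.50, adjusted p = 0.017 by edgeR). In males the DNA methyltransferase gene Dnmt3b rose to 20.3 ± 1.17 CPM in CKO embryos, against 10.8 ± 1.67 CPM in Ctrl embryos (0.92, SE 0.17, adjusted p = 0.0213 by edgeR), and the N-cadherin gene Cdh2 rose by 0.71 on the log2 scale (SE 0.15, adjusted p = 0.0296 by edgeR). The female values of Dnmt3b were 13.3 ± 0.623 CPM in CKO and 8.70 ± 1.64 CPM in Ctrl embryos, and it was not called there (0.61, SE 0.21, adjusted p = 0.0889 by edgeR). Those of Cdh2 were 55.2 ± 0.877 CPM in CKO and 41.8 ± 8.05 CPM in Ctrl embryos, also not called by edgeR. In males edgeR called 2 of the list higher, limma-voom 3 and DESeq2 3, with 3 higher at an unadjusted p under 0.05 and 0 lower by any count. Of all tested genes in males, edgeR called 1.2% higher and 0.497% lower, and 16.7% had an unadjusted p under 0.05.

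**Figure D5:**
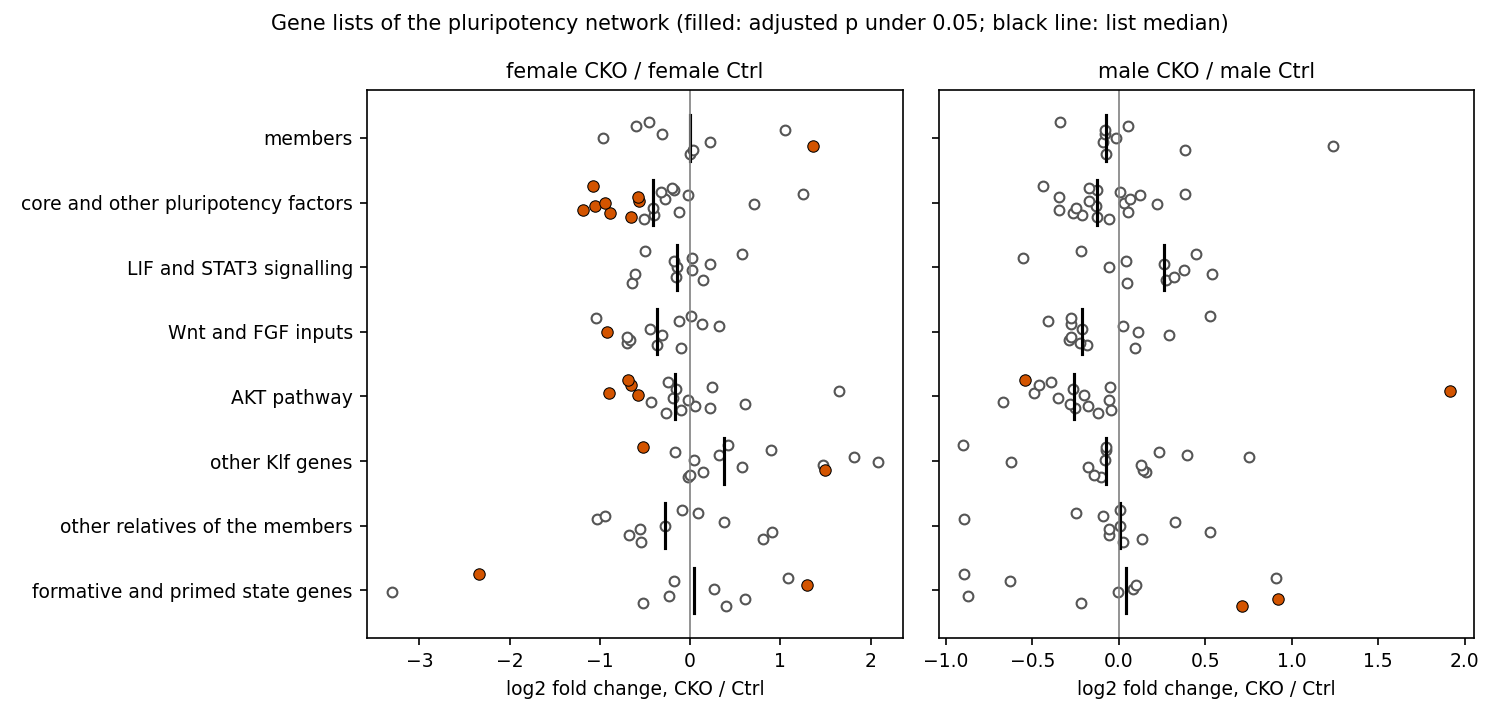
Log2 fold change, CKO over Ctrl, of the members and of 7 other gene lists of the pluripotency network in females (left) and males (right), 1 point a gene, with filled points at an edgeR adjusted p under 0.05 and a black line at the list median. In females 8 of 19 core pluripotency factors are filled below 0 while Klf4 is the 1 filled member, and in males the filled points are Tsc2, Pik3r1, Dnmt3b and Cdh2.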

How the data were processed

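RNA of sorted PGCs from 12 embryos was sequenced after amplification with SMART-seq V4, per the labels' protocols. This kit does not mark strand, so overlapping genes on opposite strands share reads. The authors deposited raw read counts per gene. According to the submitters' processing notes, the tools were TopHat2 2.0.11, Trimmomatic 0.33, CASAVA 1.8.4 and featureCounts, on builds NCBIM37 and mm9. The treatment of reads with several matches is not given in the sources used here. Symbols and exon lengths came from GENCODE M21 on GRCm38, promoters from RefSeq on GRCm38.p6. Both are other builds than that of the counts.

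The filterByExpr function of edgeR (minimum count 10, total 15) left 16708 genes. One robust quasi-likelihood fit in edgeR 4.0.16 (limma 3.58.1, R 4.3.3), with TMM scaling, a coefficient per group and 8 residual degrees of freedom, gave all contrasts. P-values were adjusted by Benjamini-Hochberg over all tested genes and called under 0.05. Intervals are at 95%. The code of the fit was run on counts simulated from its own dispersion estimates, with changes set in female CKO libraries alone. Such a run checks the code and not whether the model holds for these data.

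The members, the gene lists and the markers were chosen with earlier results of these data known. The 9 members and Ezh2 are always named, with up to 4 called genes of smallest adjusted p per list and contrast and 3 like genes per called member. Alternatives were other scalings and filters, DESeq2 1.42.0, limma-voom with quality weights, a block for the replicate number, a fit to only the groups compared, and leaving out each embryo. The mean of the CKO effects was added after the data were seen. No pair of libraries within a group agreed within counting noise.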

Additional observations from a re-analysis of the deposited data

Results flagged for a closer look

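Klf5 in male Ctrl embryo 4 stood apart from its group. It was at 109.8 CPM, while the other 3 male Ctrl embryos lay between 87.6 and 90.0 CPM, and its gap to the nearest of them took up 0.892 of the group's range, above Dixon's critical value of 0.829 for 4 samples. The 9 members were each examined in this way in the male Ctrl group, the only one with 4 embryos, and chance flags about 1 group in 20.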

How the results depend on the processing

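Of 837 log2 fold changes of members recomputed under the alternatives, 755 kept their direction and their side of the threshold, 54 changed sign, 20 passed in the alternative alone and 8 were lost there. None of the sign changes concerned a value that had passed the test, and the cause of the changes was not tested. Scaling by library totals shifted the median of all genes by 0.11 in female CKO against female Ctrl, by 0.10 between the sexes in Ctrl and by 0.18 between the sexes in CKO embryos. Klf4 kept its call in females under all alternatives other than leaving out an embryo. In males it was also called with no filter on low counts (adjusted p = 0.0408), by limma-voom (0.0242) and by DESeq2 (0.00172), so that 1 member instead of 0 was called higher. In females 1 member was called lower with no filter (Tcl1, adjusted p = 0.033), and 2 were called lower, Tcl1 and L1td1, with the replicate number as a block (0.0414 and 0.0389), by limma-voom and by DESeq2, instead of 0. The replicate numbers in the sample titles gave no sign of a pairing (correlations of the deviations of 0.191 and -0.01 in females and 0.0121, 0.049 and -0.0225 in males). With 2 female CKO embryos the deviations mirror each other, and the first female pair carries different numbers in the column names of the count table, so the check says little in females. The block also brought Klf2 between the sexes in CKO embryos past the threshold (-0.63, adjusted p = 0.0439). By limma-voom 1 member (Tfcp2l1) was called higher between the sexes in Ctrl embryos, and for the mean of the CKO effects 1 (L1td1, adjusted p = 0.0456) was called lower, each instead of 0.

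With 1 embryo left out, members called in females numbered 0 higher and 0 to 1 lower, members called higher between the sexes in Ctrl embryos 0 to 1, members called lower between the sexes in CKO embryos 2 to 5, and members called lower for the mean of the CKO effects 0 to 1. Tcl1 passed in females without female CKO embryo 2 (adjusted p = 0.0409) or female Ctrl embryo 1 (0.0433). An arm reduced to 1 embryo is assumed to vary like the other groups. Leave-one-out values that changed sign ranged, in females, from -0.41 to 0.38 for Klf2, -0.12 to 0.51 for Klf5, -0.43 to 0.33 for Esrrb and -0.76 to 0.033 for Nr5a2. In males they ranged from -0.16 to 0.050 for Esrrb, -0.48 to 0.31 for Tbx3, -0.20 to 0.026 for Nr5a2 and -0.20 to 0.16 for L1td1. For the difference of the effects they ranged from -0.13 to 0.35 for Klf4, -0.029 to 0.60 for Klf5, -0.35 to 0.40 for Esrrb, -0.45 to 0.064 for Tfcp2l1 and -0.68 to 0.11 for Nr5a2. Between the sexes they ranged from -0.12 to 0.35 for Klf4 and -0.55 to 0.58 for Tbx3 in Ctrl embryos, and from -0.55 to 0.080 for Klf5 and -0.69 to 0.066 for Esrrb in CKO embryos. For the mean of the CKO effects they ranged from -0.012 to 0.38 for Klf2, -0.10 to 0.21 for Klf5 and -0.25 to 0.13 for Esrrb.

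Sign changes under the other alternatives concerned values that were not called. Esrrb in females was at 0.017 with median-of-ratios scaling, 0.11 with library totals, 0.0022 with no filter, 0.058 with the filter of 5 CPM, 0.021 with only the groups compared, 0.020 with the replicate block and 0.015 by DESeq2, and Klf2 at -0.024 with the block and -0.13 by limma-voom. L1td1 in males was at 0.027 with library totals, 0.0064 with no filter and 0.10 with the block, and Tbx3 at 0.37 by limma-voom. Esrrb was at -0.038 by limma-voom in the difference of the effects and 0.039 with library totals in the mean of the effects. Between the sexes in Ctrl embryos Tbx3 was at -0.30 with the block and Klf4 at -0.17 by limma-voom.

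With 2 female CKO embryos and Tbx3 at 0 to 28 counts a library, small changes could not be resolved. The number of genes called over the whole table also moves with the tool, from 1198 by edgeR to 2068 by limma-voom and 1982 by DESeq2 in females, and from 284 to 1122 and 989 in males. Fitting only the groups compared was not distinct for the difference and for the mean of the effects.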
